A study of Mus musculus with 4 samples.

Results

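The genes for the proteins of the cytosolic ribosome were followed in hearts of mice lacking both miR-1 genes and in control hearts. Members were taken by name: Rpl or Rps followed by digits, with an optional final letter a, x, l or y, plus Rplp0, Rplp1, Rplp2 and Rpsa, leaving out the S6 kinases and the pseudogenes marked by -ps. Of the 22556 gene names in the deposited tables, 80 matched. A level of at least 1 FPKM (fragments per kilobase per 1000000 fragments, a level corrected for gene length) in any library was reached by 74 of these 80, with 32 in the small subunit and 42 in the large subunit. The rule used no comparison between genotypes. At least 1 FPKM was reached in all 4 libraries by 52 of the 74, in 3 by 4, in 2 by 17 and in 1 by Rpl27 alone.

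The 4 libraries were made from poly-A selected RNA of whole hearts of the strain labelled Sv129, 1 library for each combination of stage and genotype. The double knockout, labelled dKO, lacks miR-1-2 as well as miR-1-1, and the control is labelled dHET. At postnatal day 2.5 (P2.5) the controls were littermates, and single reads of 100 bases were taken. At embryonic day 15.5 (E15.5) reads of 100 bases were taken from both ends, and the control is headed WT in that table although its sample label says dHET. How many hearts entered a library is not given in the sources used here. With 1 library per group no value has a replicate error, no test between genotypes was possible, and each difference below sets 1 library against another. Depth, as scaling totals recovered from low FPKM values, came to 44600000 and 49900000 fragments in the dHET and dKO libraries at P2.5, against 86500000 and 104000000 at E15.5.

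A eukaryotic ribosome is built from a small subunit, which decodes the messenger RNA, and a large subunit, which joins the amino acids. Each subunit holds ribosomal RNA and a fixed set of proteins needed in matched amounts, so their genes are usually expressed in parallel. Their messenger RNAs typically begin with a run of pyrimidines, the 5′ oligopyrimidine tract, through which their translation follows growth signals such as mTOR. Most of these genes have also left processed copies, spliced sequences without introns inserted elsewhere in the genome. A read from a ribosomal protein messenger RNA can then match several places, and its count depends on how the mapping treats such reads. The study asked which genes are dysregulated after deletion of both miR-1 genes. Heart muscle holds much miR-1, a microRNA that acts mainly through pairing of its seed with the 3′ UTR of its targets.

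How alike a member and its copies are is shown first for the 5 members with the differences that the authors' deposited tables call significant. Each pair gives 60 bases of coding sequence of the member, from GENCODE release M1 transcripts, above the same stretch of a near-identical copy in the genome build NCBIM37, the assembly of mm9. The copy was the most identical one found across the whole coding sequence, with 1 autosome, the Y and unplaced sequence left out. Other copies can be less alike. The stretch was chosen to hold the most differences, up to 2, where the copy differed. Capitals mark the bases that differ, and positions are counted from 1 at the left end. A single read of 100 bases covers more than such a stretch.
Rps18: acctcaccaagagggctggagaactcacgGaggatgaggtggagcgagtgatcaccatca
Rps18 copy at chr8:109786938-109786997, minus strand: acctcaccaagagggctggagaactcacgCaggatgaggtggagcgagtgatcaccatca
Rps2: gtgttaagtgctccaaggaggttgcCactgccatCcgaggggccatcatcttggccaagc
Rps2 copy at chrX:50252183-50252242, plus strand: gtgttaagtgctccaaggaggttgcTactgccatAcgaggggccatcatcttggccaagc
Rpl11: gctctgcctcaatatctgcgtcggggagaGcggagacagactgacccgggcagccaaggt
Rpl11 copy at chr3:146502196-146502255, minus strand: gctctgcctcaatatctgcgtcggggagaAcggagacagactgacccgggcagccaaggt
Rps12: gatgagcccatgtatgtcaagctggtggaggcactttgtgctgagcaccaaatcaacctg
Rps12 copy at chr19:59397029-59397088, plus strand: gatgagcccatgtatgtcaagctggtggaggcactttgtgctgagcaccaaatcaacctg
Rps13: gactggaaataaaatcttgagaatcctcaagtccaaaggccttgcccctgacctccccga
Rps13 copy at chr7:95679152-95679211, minus strand: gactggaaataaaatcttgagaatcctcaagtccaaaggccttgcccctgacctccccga
The differences are G30C in Rps18, C26T and C35A in Rps2 and G30A in Rpl11. The stretches of Rps12 and Rps13 are the same as in their copies. Over the whole match the copy was 99.5% identical to Rps18 over 546 bases, 99.1% to Rps2 over 953, 99.8% to Rpl11 over 591, 100% to Rps12 over 495 and 100% to Rps13 over 522.

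Copies were the rule among the members. A copy was counted where at least 90% of the bases agreed over at least 80% of the coding sequence, away from the gene itself. The 73 members with a GENCODE transcript (Rpl41 was matched to none) had 861 copies in all, with a median of 9, and 31 members had more than 10. Rpl21, a large subunit protein, had 79, Rpl7a had 78 and Rps2 had 53, while 5 members had 0. As a measure that follows a read, windows of 100 bases centred on each coding base were looked up in the rest of the genome with up to 2 mismatches. The median member had 95.4% of its windows found elsewhere, and 50 of the 73 had at least 90%. Under 50% were found elsewhere for 10 members, among them Rpl3l (0%), Rpl8 (1.83%), Rps3 (4.78%), Rps27l (6.92%), Rpl4 (33.5%), Rps21 (36.1%), Rpl22 (39.3%) and Rps9 (48.1%). The 50% line was set after the values were seen. Of the 981 copies of all matching names, 7 lay in a gene row of the deposited tables that spans under 3000 bases. Longer rows were not searched, so that 1 copy of Rplp2 within the row of Rplp2-ps1 is not among the 7.

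Levels of the members were far from equal. In the P2.5 dHET library they ran from 0.214 FPKM (Rpl3) to 341 FPKM (Rplp1), with a median of 15.2. The ranges were 0.0590 to 417 FPKM in the P2.5 dKO library, 0.0297 to 342 in the E15.5 dHET library and 0.0987 to 342 in the E15.5 dKO library, and the medians were 13.1, 10.9 and 8.32. A level of at least 100 FPKM in every library was reached by 9 members, and between 8 and 13 members per library were below 1.

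**Figure D1:**
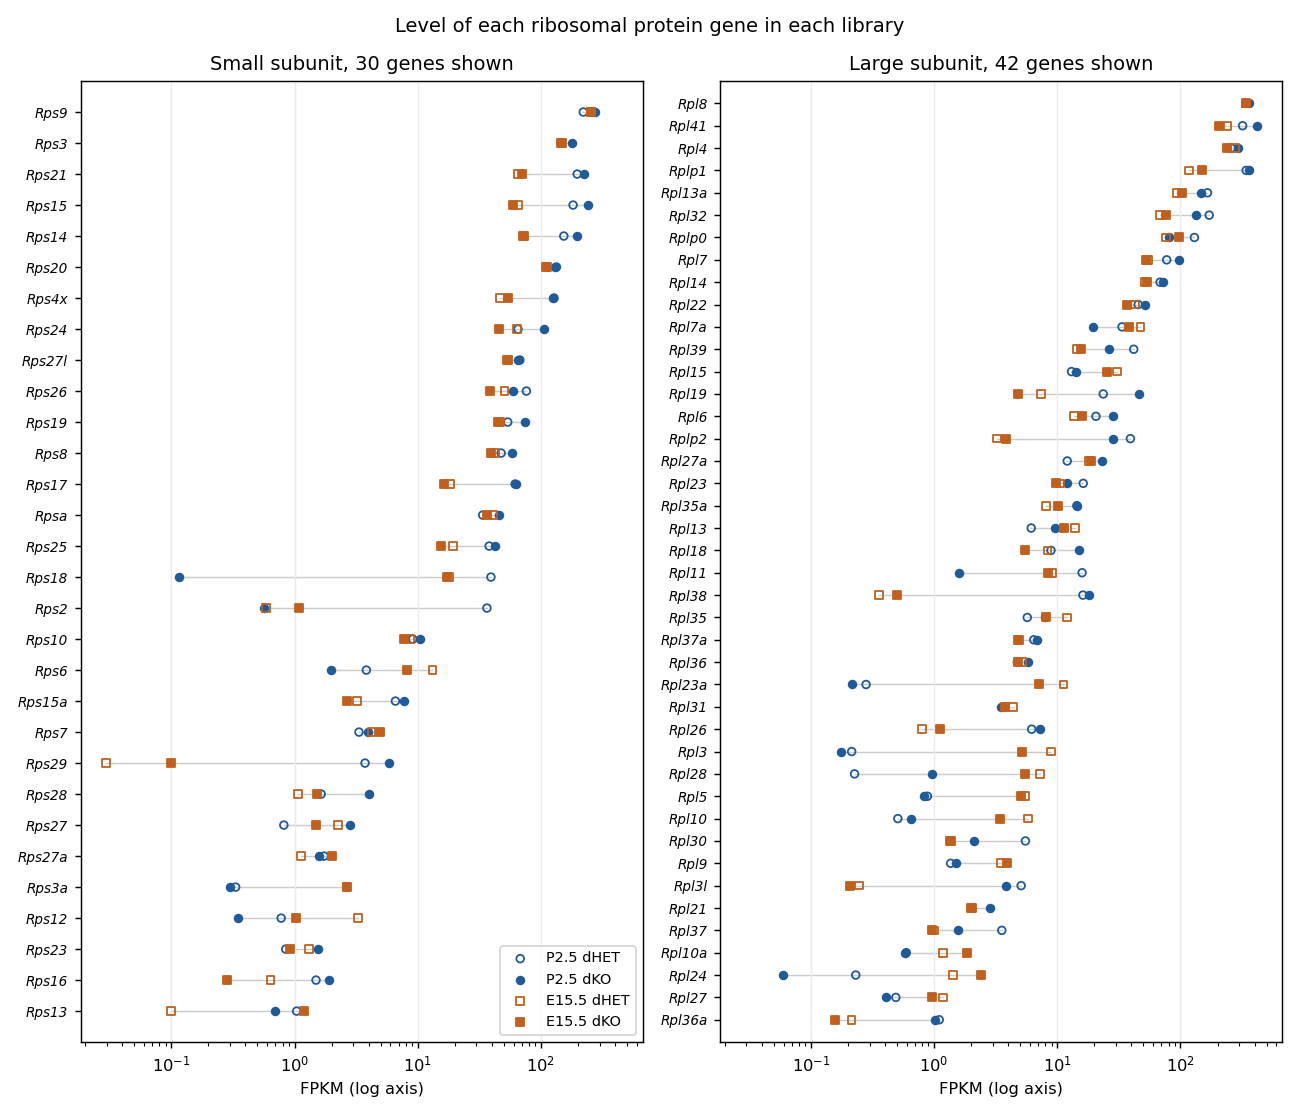
Each row is 1 of 72 ribosomal protein genes, ordered by its mean level, and each symbol is its level in 1 library in FPKM on a log axis (open symbols dHET, filled symbols dKO, circles P2.5, squares E15.5). How far the symbols of a gene lie apart differs between genes. The widest ranges are those of Rps18 and Rps2, with 1 library apart in each, and of Rps29, Rpl38, Rpl23a and Rpl3, by stage. Other genes also spread widely, among them Rpl24, Rpl28 and Rpl3l.

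Among the highest 6 by mean level were the large subunit members Rpl8, Rpl41 and Rpl4. Rpl8, which lies near the peptidyl transferase centre, was at 339, 359, 342 and 342 FPKM, in the order P2.5 dHET, P2.5 dKO, E15.5 dHET and E15.5 dKO, which is kept below. Rpl41, the smallest ribosomal protein, was at 319, 417, 241 and 204 FPKM. Rpl4, a protein of the exit tunnel, was at 258, 292, 276 and 240 FPKM. These genes were high in all 4 libraries. The P2.5 dKO library was the highest for each, without a shared order of the others.

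Rps9, a small subunit protein involved in decoding accuracy, was at 221, 277, 255 and 253 FPKM. Rplp1 of the stalk that recruits elongation factors was at 341, 357, 117 and 150 FPKM, and so was among the highest 6 with P2.5 levels above those at E15.5. Rpl8, Rpl4 and Rps9 are among the 10 members with few recurring windows.

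The lowest 6 lay close to the threshold of 1 FPKM. Rpl36a was at 1.10, 1.02, 0.213 and 0.157 FPKM, Rpl27 reached 1.18 in the E15.5 dHET library and Rps13 reached 1.19 in the E15.5 dKO library. Rpl24 and Rpl10a reached 2.39 and 1.84 in the E15.5 dKO library, and Rps16 reached 1.92 in the P2.5 dKO library. Just below the threshold were Rpl17, with a highest level of 0.794 FPKM, and Rpl12 with 0.597. Rpl29 and the paralog Rpl39l were also below it, and the paralog Rpl10l was listed at 0 in all 4 libraries. Apart from the paralogs, the proteins just named are components of the standard ribosome, and each of the lowest 6 had at least 94.0% of its windows found elsewhere, where the median member had 95.4%.

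Members with few recurring windows had the higher levels. The 10 members with few recurring windows had median levels of 209 and 209 FPKM at P2.5 and of 199.6 and 184 FPKM at E15.5 (dHET, then dKO in each case). For the other 63 the medians were 8.88 and 7.76 FPKM at P2.5 and 8.31 and 5.47 FPKM at E15.5. Rpl3l, at 5.09, 3.83, 0.246 and 0.207 FPKM, was the low member among the 10. Over the 73 members Spearman's rho between the level and the share of recurring windows was -0.47 and -0.50 in the P2.5 libraries and -0.36 and -0.38 in the E15.5 libraries. These rho values describe genes of the same libraries, which are not independent.

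**Figure D2:**
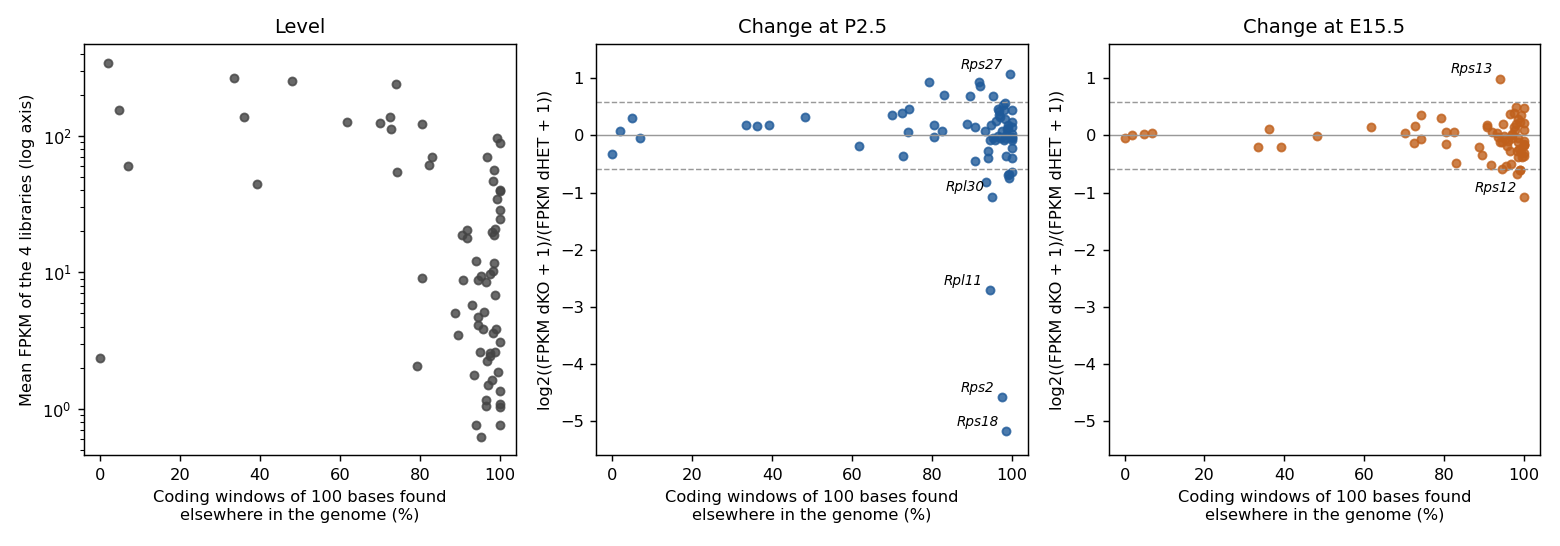
Each point is 1 of 71 ribosomal protein genes, with the percentage of its 100-base coding windows found elsewhere in the genome on the horizontal axis. The vertical axes give the mean FPKM of the 4 libraries (log axis) and the log2 change at each stage, with dashed lines at 1.5-fold. All points past the dashed lines lie at 50% or more recurring windows, the side that holds 63 of the 73 members with a transcript.

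At P2.5 the members were on both sides of the control. Changes were expressed as log2((FPKM dKO + 1)/(FPKM dHET + 1)), a scale that understates differences of low genes, and 1.5-fold on this scale was the size that was counted. Higher in the dKO library were 7 of 74 members, where 3.3% of the 12123 genes compared were higher. Lower were 9 of 74, where 1.3% of genes were lower. The median change of the members was 0.08, beside 0.06 over all genes. Above 0 were 43 members and below 0 were 31. By subunit, 3 of 32 small subunit and 4 of 42 large subunit members were higher, and 3 and 6 were lower. With each library rescaled to the same sum, 5 members were higher and 12 lower, beside 2.57% and 4.75% of genes, and the median turned to -0.07 for the members, beside -0.08 for all genes. All 16 differences at the deposited scale were in members with at least 50% recurring windows, a class that holds 63 of the 73 members, and nothing is read from that count.

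The 3 largest differences at P2.5 were lower levels in the dKO library. Rps18, a small subunit protein that contacts the transfer RNAs (mm9 chr17:34088944-34092586), was at 39.3 FPKM in the P2.5 dHET library and 0.115 in the dKO library, against 17.9 and 17.3 at E15.5. Its change was -5.18 (P2.5) and -0.04 (E15.5), so 1 library of the 4 stood apart as low. The 0.115 FPKM correspond to about 3 fragments, so the size of the ratio is poorly fixed. Rps2, at the messenger RNA entry of the small subunit (chr17:24857008-24858872), was at 36.5, 0.562, 0.590 and 1.09 FPKM. For Rps2 the P2.5 dHET library stood apart as high, at about 1623 fragments, while the others held about 28, 51 and 113, and the P2.5 change was -4.58. Rpl11, which with Rpl5 and the 5S ribosomal RNA can bind Mdm2 and thereby raise p53 (chr4:135605863-135609286), was at 15.9, 1.59, 9.13 and 8.39 FPKM. Its change was -2.71 at P2.5, with the dKO library below the other 3. Rpl5 itself was at 0.882, 0.831, 5.46 and 5.07 FPKM.

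The other 6 lower members at P2.5 had smaller differences. Rpl30 was at 5.51 FPKM in the P2.5 dHET library and 2.10 in the dKO library (-1.07), and Rpl37 was at 3.54 and 1.57 (-0.82). Rpl7a was at 33.5 and 19.6 FPKM (-0.74). Rps6, the small subunit protein phosphorylated by the S6 kinases, was at 3.83 and 1.98 FPKM (-0.69). The stalk base Rplp0 was at 130 and 80.8 FPKM (-0.68), and Rpl39, which lines the exit tunnel, was at 41.7 and 26.4 FPKM (-0.64). At E15.5 Rplp0 was on the other side, at 76.2 FPKM in the dHET and 97.5 in the dKO library.

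The 7 higher members at P2.5 comprised low and well expressed genes. Rps27 was at 0.819 FPKM in the dHET and 2.82 in the dKO library (1.07), about 13 and 49 fragments. Its close relative Rps27l, with few recurring windows, was at 67.5 and 65.0 FPKM at P2.5, against 52.9 and 54.3 at E15.5. Rpl19, which takes part in a bridge between the subunits, was at 23.6 and 46.1 FPKM (0.94), and Rps28 was at 1.65 and 4.04 (0.93). Rpl27a was at 12.04 and 22.8 FPKM (0.87). Rps24, a gene mutated in some cases of Diamond-Blackfan anaemia, was at 65.2 and 106 FPKM (0.70), Rpl18 at 8.88 and 15.0 (0.70) and Rpl28 at 0.226 and 0.969 (0.68). The Rpl28 values correspond to about 8 and 37 fragments.

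**Figure D3:**
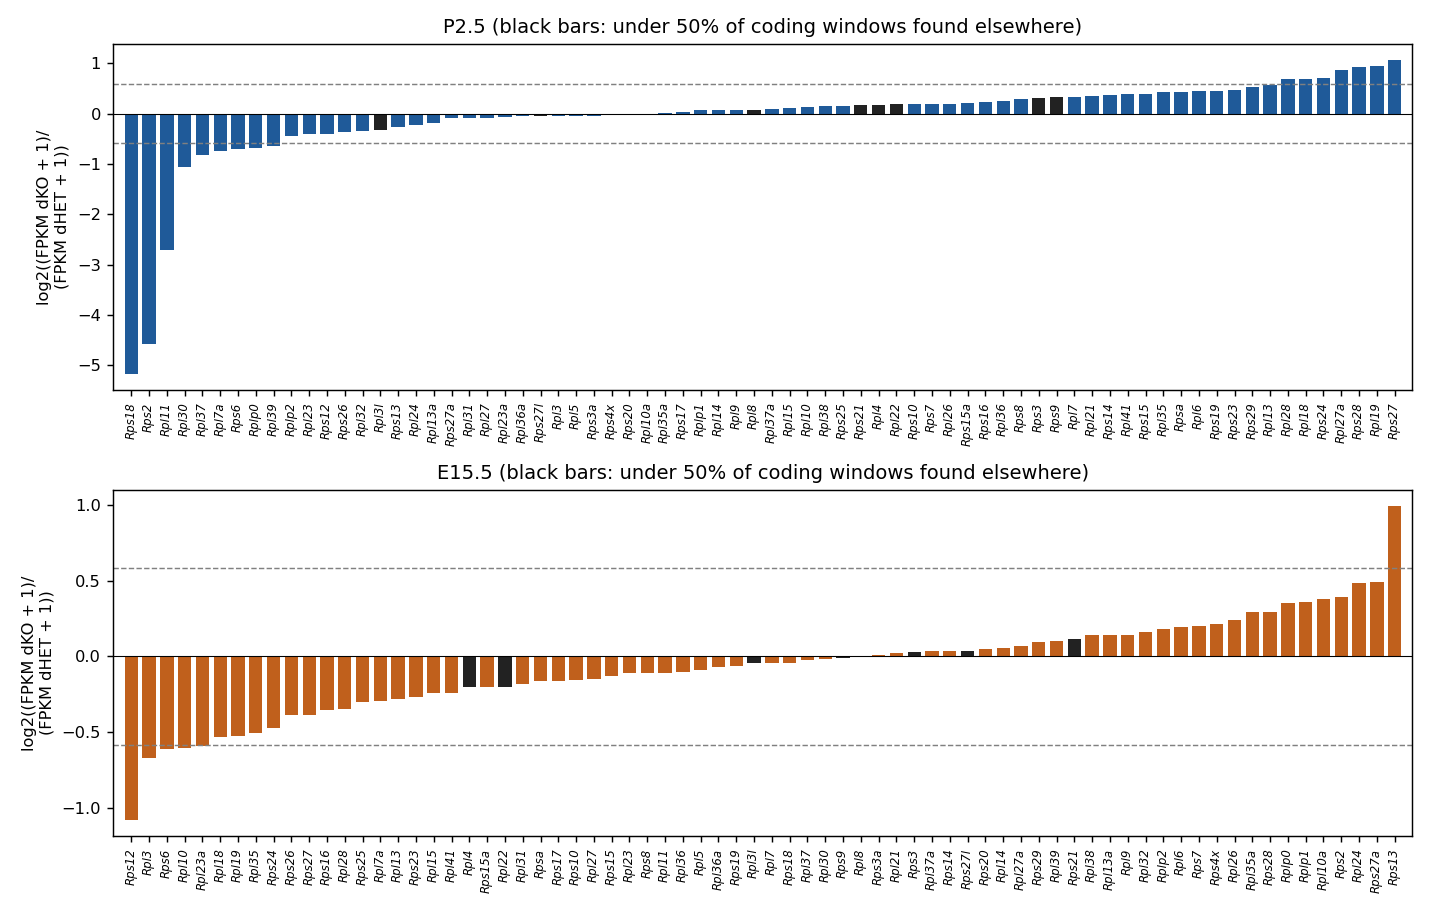
Bars give the change of each of 72 ribosomal protein genes between the dKO and the dHET library of a stage, as log2((FPKM dKO + 1)/(FPKM dHET + 1)), sorted within each stage, with dashed lines at 1.5-fold. Rps18, Rps2 and Rpl11 extend to -5.18, -4.58 and -2.71 at P2.5, and the black bars of the 8 genes shown with few recurring windows stay inside the dashed lines at both stages.

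At E15.5 the differences were fewer and leaned lower. Higher in the dKO library was 1 of 74 members, where 0.479% of the 12114 genes compared were higher. Lower were 5 of 74, where 0.71% of genes were lower. The median change was -0.05, beside -0.01 over all genes, and 43 members were below 0 and 31 above. With the rescaled libraries 4 were higher and 8 lower, beside 1.07% and 1.14% of genes, a setting in which the pseudocount is also smaller relative to the levels. These 6 members were among the 63 with at least 50% recurring windows.

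The 1 higher member at E15.5 was Rps13, a small subunit protein, at 0.0994 FPKM in the dHET and 1.19 in the dKO library (0.99), about 5 and 72 fragments. At P2.5 it was at 1.04 and 0.688 FPKM, so the E15.5 dHET library was the low one of the 4. Rps12, also of the small subunit, was at 3.28 and 1.02 FPKM at E15.5 (-1.08) and 0.779 and 0.348 at P2.5 (-0.40), lower in the dKO library at both stages. Rpl3, which reaches to the peptidyl transferase centre, was at 8.85 and 5.19 FPKM at E15.5 (-0.67). Rps6 was at 13.2 and 8.25 FPKM (-0.61). Rpl10, which joins the large subunit late in its assembly, was at 5.78 and 3.45 FPKM (-0.61), and Rpl23a, near the exit of the tunnel, at 11.3 and 7.13 (-0.59). The change of Rpl23a was just past 1.5-fold, which is 0.58 on this scale.

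Few members differed by 1.5-fold in the same direction at both stages. None of 74 members was at least 1.5-fold higher at both, where 0.298% of 12095 genes were, and 1 of 74, Rps6, was lower at both, where 0.107% of genes were. The change had the same sign at both stages in 34 members (45.9%), beside 62.6% of all genes. Above 0 at P2.5 and below 0 at E15.5 were 26 members, or 35.1%, beside 24.9% of all genes. These sign counts hold for the deposited scale only. With rescaled libraries the members below 0 at P2.5 went from 31 to 42, and all genes from 4817 to 7470 of 12123. Spearman's rho between the changes at the 2 stages was -0.20 over the 74 members. The stages share no library, and rho is given as a description.

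**Figure D4:**
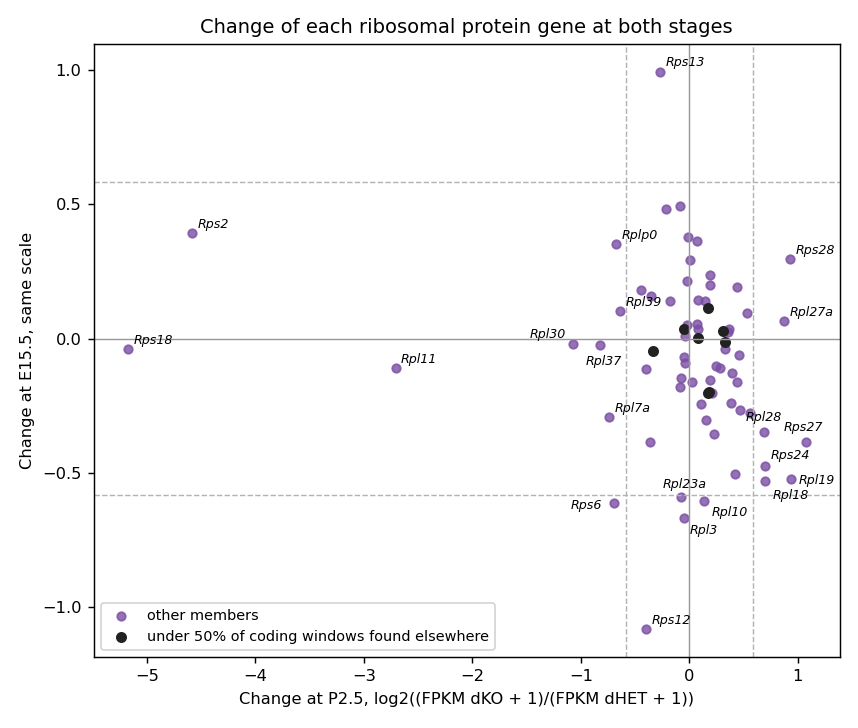
Each point is 1 of 72 ribosomal protein genes, with its log2 change at P2.5 on the horizontal axis and at E15.5 on the vertical axis, and dashed lines at 1.5-fold. Rps6 is in the lower left corner past both lines, Rps18 and Rps2 lie far to the left with E15.5 changes of -0.04 and 0.39, and the 8 black points with few recurring windows sit around the origin.

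Spread among the members was wider than among all genes. The median size of the change without its sign was 0.28 for the members and 0.17 for all genes at P2.5, against 0.18 and 0.09 at E15.5. Within 1.2-fold of the control were 48.6% of members at P2.5, beside 68.9% of genes, and 64.9% at E15.5, beside 90.5%. For the 10 members with few recurring windows the changes ran from -0.33 (Rpl3l) to 0.33 (Rps9) at P2.5 and from -0.21 to 0.11 at E15.5. Within 1.2-fold were 70% of them at P2.5, against 100% at E15.5. The summed level of all 74 members was 4487 FPKM in the P2.5 dHET and 4758 in the dKO library, and 3340 and 3204 at E15.5.

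The authors' deposited tables, whose test on 1 library each compares 2 libraries and not the genotypes, called 3 of 74 members significant at P2.5 and 2 of the 73 members with an accepted status at E15.5. The 3 at P2.5 were all lower, where the authors' deposited table called 0.116% of genes lower and 0.289% higher. In the authors' deposited table their q-values were 3.1e-14 for Rps18, 1.39e-23 for Rps2 and 2.35e-07 for Rpl11. At E15.5 Rps12 was lower with a q-value of 0.0315, where 0.546% of genes were called lower, and Rps13 was higher with a q-value of 0.00171, where 0.323% were called higher, in the authors' deposited table. For Rps6 the authors' deposited tables give q-values of 0.994 (P2.5) and 0.221 (E15.5). All 5 genes called there had copies, as did 68 of the 73 members with a transcript, and the part of the copies in these values was not tested.

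Some members differed between the stages in both genotypes. The tables of the stages were normalized separately and read differently, so these are levels side by side. The 5-fold size, used in both directions, was set after the values were seen, so the shares are descriptions only. At least 5-fold higher at P2.5 in both genotypes were 6 of 74 members (8.11%), where 1.18% of 12095 genes were. Rps29 was at 3.74 and 5.86 FPKM at P2.5, against 0.0297 and 0.0987 at E15.5. Rpl38, which in mouse embryos is needed for translation of a set of Hox messenger RNAs, was at 16.1 and 17.96 FPKM at P2.5 but 0.357 and 0.495 at E15.5. The stalk protein Rplp2 was at 39.2 and 28.4 FPKM at P2.5 but 3.25 and 3.82 at E15.5. The other members of this group were Rpl26, Rpl36a and Rpl3l.

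At least 5-fold higher at E15.5 in both genotypes were 7 members (9.46%), where 0.587% of genes were: Rpl3, Rpl5, Rpl10, Rpl23a, Rpl24, Rpl28 and Rps3a. Rpl23a was at 0.280 and 0.215 FPKM at P2.5, against 11.3 and 7.13 at E15.5. The pair Rpl3 and Rpl3l were on opposite sides. Rpl3l replaces Rpl3 in ribosomes of striated muscle, and it was at 5.09 and 3.83 FPKM at P2.5, against 0.246 and 0.207 at E15.5. Rpl3 was at 0.214 and 0.177 FPKM at P2.5, against 8.85 and 5.19 at E15.5. None of the Rpl3l windows recurred, and 98.3% of those of Rpl3 did, so only the Rpl3l levels are free of copies by this measure. Of the 13 members in both groups, Rpl3l was the only 1 with under 50% recurring windows, and 10 of the 73 members are in that class. The members of both groups named here were chosen after their values were seen.

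Rows of the tables for copies or relatives, outside the name rule, also carried signal. Rplp2-ps1 was listed at 181, 207, 137 and 149 FPKM under a status of too little data in both tables, above Rplp2 in every library. Gm13611 on chromosome 2, a copy of Rpl36 with 98.4% identity, was at 17.7, 27.2, 24.5 and 25.02 FPKM, against 4.74, 5.81, 5.23 and 4.80 for Rpl36. Gm13253 on chromosome 4, a copy of Rps15a, was at 0.0643, 0.0862, 18.1 and 13.3 FPKM, and so differed by stage, while Rps15a was at 6.596, 7.76, 3.22 and 2.67. Rps4y2, by name a relative of the X-linked Rps4x, whose likeness in sequence was not measured here, was at 38.5, 52.4, 36.7 and 39.1 FPKM, and Rps4x was at 128, 125, 46.7 and 54.4.

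Tissue composition and sex were read from marker lists. Of the 8 cardiomyocyte genes 7 could be compared per stage (a status of too much data was given for Myh6 in the P2.5 and Myh7 in the E15.5 table), with 1 higher and 0 lower at P2.5, and their summed level was 6680 and 9249 FPKM at P2.5, then 3985 and 3808 FPKM at E15.5. The 1 higher gene, Tnnt2, was at 3314 and 5545 FPKM at P2.5 and made up most of that sum's rise. The median change of the 7 at P2.5 was 0.07, with 4 above 0 and 3 below. The marker lists of liver, lung epithelium and neurons, each taken alone, summed to under 1 FPKM in each library, and Alb was listed at 0 in all 4. The 4 smooth muscle genes summed to 696 and 1768 FPKM at P2.5, with 2 higher, and 828 and 1363 at E15.5, with 1 higher and 1 lower. Most of that sum was Acta2, an actin also made by immature heart muscle, at 658, 1692, 692 and 1215 FPKM. Cnn1 was at 15.9 and 53.5 FPKM at P2.5, while the more specific Myh11 was at 4.30, 6.41, 6.95 and 0.915 and Tagln at 17.1, 16.0, 46.3 and 37.6. Of 6 fibroblast genes 2, and of the 5 macrophage genes compared 2, were lower at P2.5, where 1.3% of all genes were. The fibroblast genes went both ways, with 2 above 0 and 4 below. Dcn was at 187 and 122 FPKM and Lum at 44.7 and 26.7, while Col1a1 was at 221 and 309 and Col1a2 at 197 and 253. Their summed level was 687 and 742 FPKM at P2.5. All 5 macrophage genes compared were below 0 at P2.5, with Csf1r nearly level at 5.18 and 5.10 FPKM. Ptprc, which stayed under 1 FPKM and was not compared, was at 0.684 and 0.757. The P2.5 libraries also differed in sex: Xist was at 0.101 FPKM in the dHET and 50.7 in the dKO library, and the Y-linked Eif2s3y at 36.1 and 0.0113. With 1 library per genotype, sex and genotype cannot be told apart at P2.5. At E15.5 Xist was at 0.0550 and 0.113 FPKM and Eif2s3y at 28.6 and 25.1, so both libraries were alike in these genes. The part of tissue composition in the values of the ribosomal protein genes was not tested. In whole hearts fewer cells of a type and less RNA per cell cannot be told apart. Of the 4 X-linked members, Rpl39 was lower at P2.5, and the P2.5 changes of Rps4x, Rpl10 and Rpl36a were -0.03, 0.13 and -0.05.

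The annotated starts of the members were read from the RefSeq promoter table (build GRCm38.p6), in which 56 members were matched. A tract was counted where an annotated start is a C followed by at least 4 pyrimidines, which is a strict rule. It was met by 13 members (23.2%), beside 813 of the 27025 genes of that table (3.01%). The 4 shown are the tract genes with a difference of at least 1.5-fold at either stage, with 10 bases before the start, and capitals from the start to the end of the tract.
Rps6, GRCm38.p6 chr4:86857348-86857377, minus strand: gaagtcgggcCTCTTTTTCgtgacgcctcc
Rps18, GRCm38.p6 chr17:33955646-33955675, minus strand: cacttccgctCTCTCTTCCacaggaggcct
Rps27, GRCm38.p6 chr3:90213629-90213658, minus strand: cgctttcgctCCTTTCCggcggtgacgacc
Rpl28, GRCm38.p6 chr7:4792955-4792984, plus strand: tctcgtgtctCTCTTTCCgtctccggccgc
The tracts have 9, 9, 7 and 8 bases. Of the 13 tract members, Rps6 and Rps18 were lower and Rps27 and Rpl28 higher at P2.5, so the tract was present on both sides. The median change of the 13 was 0.15 at P2.5, then -0.16 at E15.5, and of the 43 matched members without it 0.08 and -0.07. With rescaled libraries the P2.5 medians were -0.01 and -0.02. The word CCGGAAG, a core of ETS family binding sites, was found on either strand between 250 bases before and 50 after a start in 23 of the 56 members (41.1%), beside 9.93% of genes.

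The seed match of miR-1, ACATTCC, was looked up in the 3′ UTRs. With the longest annotated 3′ UTR of each gene, it was present in 2 of 73 members, Rps15a and Rps19 (2.74%), and in 11.03% of the 11702 genes at 1 FPKM or more. The 3′ UTRs of the members are short, with a median of 89 bases against 1206. In the transcript of each member that lies nearest the deposited gene, the median was 58 bases and the word was present in Rps15a alone. The 3′ UTR of that Rps15a transcript has 4722 bases. Among these transcripts with a 3′ UTR of at most 200 bases the word was present in 0 of 51. Of the 974 genes whose longest 3′ UTR has at most 200 bases, 0.513% held it. The Rps15a change was 0.21 at P2.5, then -0.20 at E15.5.

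Other genes of ribosome production and translation were taken as lists. Of the 88 compared at P2.5, 0 were higher and 2 lower, where 3.3% and 1.3% of all genes were, and of the 89 at E15.5, 1 was higher and 0 lower, where 0.479% and 0.71% were. Of 8 genes listed as ribosomal proteins beside the name rule, 0 were past 1.5-fold at E15.5 and 0 were higher at P2.5. That list also holds the member Rps3a, and Rps19bp1, by name a binding protein of Rps19. Gnb2l1, which encodes the small subunit scaffold also called Rack1, was at 249, 264, 294 and 271 FPKM. Of 16 translation genes known for an oligopyrimidine tract, 0 differed by 1.5-fold at P2.5 (2 were lower with rescaled libraries) and Tpt1 was higher at E15.5, at 7.85 and 21.99 FPKM (1.38). The elongation factors Eef1a1 (714, 757, 791 and 731 FPKM) and Eef2 (502, 534, 403 and 377 FPKM) were the highest of that list by mean level.

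Ribosome assembly factors, which fold and cut ribosomal RNA in the nucleolus, had 0 of 29 past 1.5-fold at P2.5 and 0 of 30 at E15.5. Their median change was 0.13 at P2.5, and -0.02 with rescaled libraries. At E15.5 it was -0.13, and 27 of the 30 were below 0, beside 52.2% of all genes. Nucleolin (Ncl) was at 32.4, 46.1, 45.3 and 39.3 FPKM and nucleophosmin (Npm1) at 34.9, 40.9, 28.1 and 22.6. Nop58, a core protein of the box C/D snoRNA particles, was at 17.7, 17.4, 29.4 and 23.1 FPKM. The 14 genes of RNA polymerase I and its factors had medians of 0.13 and -0.03, and the 15 regulators of ribosomal protein messenger RNA -0.0013 and -0.06, with 0 past 1.5-fold. With rescaled libraries the P2.5 medians of these were -0.02 and -0.16. Of 7 snoRNA host genes Snhg3 was lower at P2.5, at 8.78 and 2.29 FPKM (-1.57), and 5.19 and 5.04 at E15.5. Recurrence in the genome was not measured for these lists.

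**Figure D5:**
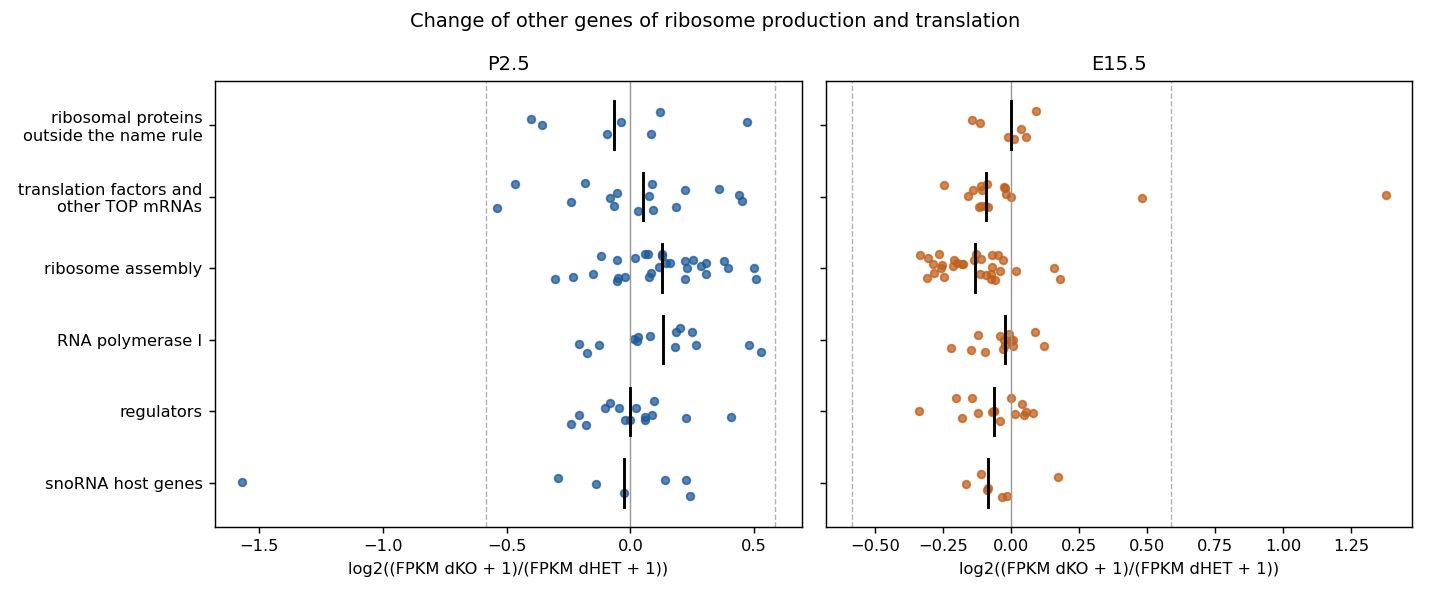
Each point is 1 gene of a list of ribosome production and translation, with its log2 change between the dKO and the dHET library at P2.5 and at E15.5, black bars at the median of the list and dashed lines at 1.5-fold. The median of the assembly factors lies at 0.13 for P2.5 (-0.02 with rescaled libraries) and -0.13 for E15.5, and Snhg3 and Tpt1 are the points past the lines. The medians cover each list, and 1 gene is not plotted.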

How the data were processed

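The authors' deposited values were FPKM, in 1 table per stage with 22552 rows, made with TopHat, Bowtie and Cufflinks on mm9 per the submitters' processing notes. Their versions and their handling of multiply matching reads are not named there. Per stage, 86 rows displaced by commas inside names were realigned, and where 1 name had several rows the one with the highest mean FPKM was used. The E15.5 fold changes and scores in the deposited tables are control over dKO, and their sign was turned. The deposited p-values and q-values and log2 ratios are the authors' own.

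Changes were computed within a stage, with a pseudocount of 1, over genes that reached 1 FPKM in any library and a status of OK or too few fragments for a test. Fragment numbers were estimated from FPKM, transcript length and the scaling total, and between 81.4% and 86.8% of low values came within 0.1 of a whole number. Copies were found with BLAST 2.17.0 (word size 28) and tables handled with Python 3.11.15 and pandas 2.3.3. The window search and the depth estimate were tested on simulated data.

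The members and lists were chosen with earlier results of these data known. Named genes were members past 1.5-fold, the 6 highest and 6 lowest by mean level, those next to the FPKM threshold, named paralogs and stalk genes, and up to 4 high genes per other list together with those past 1.5-fold. Other names are members chosen after their values were seen. Alternatives varied the pseudocount, the filter, the scaling, the status, the fold and the members. A few genes are counted in the totals but not reported here, and they are left out of the figures.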

Additional observations from a re-analysis of the deposited data

Results flagged for a closer look

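For 8 of 74 members, FPKM + 1 differed by at least 25% (larger over smaller) in opposite directions at the 2 stages, where 0.372% of 12095 genes did. The difference between the stages was not tested, and the 25% size was set after the values were seen. At P2.5 and E15.5 the log2 changes were 0.70 and -0.53 for Rpl18, 0.94 and -0.52 for Rpl19, 0.68 and -0.35 for Rpl28 and 0.42 and -0.50 for Rpl35. They were -0.68 and 0.35 for Rplp0, -4.58 and 0.39 for Rps2, 0.70 and -0.48 for Rps24 and 1.07 and -0.39 for Rps27. Each of these 8 had at least 50% of its coding windows elsewhere in the genome, as did 63 of the 73 members with a transcript.

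Signal also stood in 5 rows that the name rule leaves out, each with at least 5 FPKM in some library. The highest of the 4 libraries was 18.1 FPKM for Gm13253, 27.2 for Gm13611, 6.96 for the joint row of Gm15450 and Rps23, 207 for Rplp2-ps1 and 52.4 for Rps4y2. The joint row of Gm15450 and Rps23, which like Rplp2-ps1 has the status of too little data in both tables, was listed at 0 in both P2.5 libraries, while Rps23 itself was at 0.849 and 1.55 FPKM there.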

How the results depend on the processing

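Every group holds 1 library, so leaving out a replicate gave no value. No paired analysis was possible because each group holds 1 library. Counts are given as higher and lower members, and shares of all genes in the same order. With a pseudocount of 0.1 they were 6 and 8 at E15.5 and 1 and 2 at both stages, with an E15.5 median of -0.084 and E15.5 shares of 1.246% and 1.395%; with 5 they were 3 and 5 at P2.5, 0 and 0 at E15.5 and 0 lower at both, with an E15.5 median of -0.036 and shares of 1.16% and 0.346% at P2.5, then 0.149% and 0.182% at E15.5. Requiring 5 FPKM in either library of the stage left 4 and 7 of 51 members at P2.5, with shares of 3.59% and 1.15%. At E15.5 it left 0 and 4 of 48, with shares of 0.49% and 0.57%. It left 0 lower at both, with medians of 0.15 and -0.11. Requiring 10 FPKM left 4 and 6 of 42 members at P2.5, with shares of 3.87% and 1.08%. At E15.5 it left 0 and 2 of 39, with shares of 0.481% and 0.444%, and 0 were lower at both.

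Rescaling each library to a sum of 1000000 turned the P2.5 median of the members to -0.072 and moved the median of all genes from 0.06 to -0.08 and the P2.5 shares of all genes from 3.30% and 1.30% to 2.57% and 4.75%. It gave 4 and 8 at E15.5, 2 lower at both, an E15.5 median of -0.081 and median levels of 57.0, 44.0, 47.1 and 36.0. Centring on all genes gave a P2.5 median of 0.017 and P2.5 shares of all genes of 2.33% and 1.91%. At 2-fold the counts were 1 and 4 at P2.5, 0 and 1 at E15.5 and 0 lower at both, with shares of 0.462% and 0.256%, then 0.0743% and 0.215%. Where a difference of 25% sufficed they were 20 and 15, 7 and 13, and 3 lower at both, with shares of 15.8% and 6.59%, then 3.22% and 2.56%.

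The 10 members with few recurring windows gave 0 and 0 at each stage and 0 lower at both, medians of 0.125 and -0.0296, and median levels of 209, 209, 199.6 and 184. Of the 22 differences of 1.5-fold, 7 remained past it in every setting run for single genes other than a new fold (Rps18, Rps2, Rpl11, Rpl19, Rpl27a, Rpl7a and Rplp0, all at P2.5), 15 were under it in some, and 0 reversed. The cause of these shifts was not tested, apart from the smaller number of members under filters. Low fragment numbers limit several of these differences, among them those of Rps18, Rps13, Rps27, Rpl28 and Rps28. Rps28 had about 20 fragments in the P2.5 dHET and 55 in the dKO library. In the P2.5 dKO library Rps2, Rpl30, Rpl11 and Rpl37 had about 28, 60, 66 and 68. Rps12 had about 55 in the E15.5 dKO library.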
